A study of Homo sapiens with 12 samples.

Results

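The BCL2 family of apoptosis regulators was followed in RNA-seq libraries of cells labelled TYK-nu, an ovarian cancer cell line, given cisplatin or its solvent control. Its members here are 10 listed genes of the 17508 in the count table, a list of names that uses no measured value. BCL2, BCL2L1 and MCL1 are survival members, BAX and BAK1 are effectors, and BID, BCL2L11, BAD, BIK and PMAIP1 are BH3-only members. The 4 groups were DMSO for 24 h, 15 μM cisplatin for 24 h, DMSO for 72 h and 15 μM cisplatin for 72 h, with 3 libraries in each. All came from this same line, whose cells the study grew in triplicate, so that p-values measure the spread between triplicates of 1 line, part of which may be technical. Exon and intron fragments had been counted apart for each gene, so that spliced and unspliced RNA of a member can be set side by side. The design poses 2 questions, how cisplatin differed from DMSO at each time and how 72 h differed from 24 h in each treatment.

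In the mitochondrial route to apoptosis, the survival members hold the effectors in check at the outer mitochondrial membrane. BH3-only members, which respond to damage, loss of growth signals or death receptors, bind the survival members or the effectors directly. Once free, BAX and BAK1 form pores that release cytochrome c, which assembles the apoptosome with APAF1 and switches on caspases. Cisplatin forms adducts on DNA, a damage signal that can reach this family through its BH3-only members.

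Not every member could be measured on both count types. MCL1 and PMAIP1 had no exon entry in the table, so that their spliced RNA is not analysed here and only their introns are described. BIK had 0 exon counts in all 12 libraries, of 380996418 exon counts in all, and 2 intron counts, 1 in each of 2 libraries. A count of 0 allows up to 3 counts, or between 0.0468 and 0.175 CPM (counts-per-million, relative to the exon counts of a library), a limit that covers counting error only. After a filter on low counts, 7 members remained for the exon test, 9 for the intron test and 7 for the test of their ratio, and BIK was in none. CPM values are given below relative to a library's own exon or intron total after TMM scaling, so that an exon value and an intron value are on different scales.

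Library totals, exon plus intron counts, ran from 18526830 to 68753262, with the 2 deepest libraries in the group given cisplatin for 72 h. Of the markers listed for an epithelial ovarian serous cancer, 8 of 10 had an exon entry and 4 were at or above 1 exon CPM in all libraries (KRT8, KRT18, KRT19 and WT1). CDH1, which encodes E-cadherin, had 0 counts in all 12 libraries, and PAX8 and KRT7 stayed below 1 CPM, so that defining markers of the labelled cell type were absent or near 0. Endothelial genes were abundant, with PECAM1 between 1350 and 2491 and CDH5 between 658 and 1046 exon CPM, while VWF stayed between 0 and 1.20. The summed level of these 3 endothelial genes lay between 3434 and 3474 CPM in DMSO at 24 h, between 3355 and 3479 in cisplatin at 24 h, between 2033 and 2125 in DMSO at 72 h and between 2165 and 2307 in cisplatin at 72 h. A further list of 11 endothelial genes, chosen after the values were seen, had 8 members at or above 1 CPM in all libraries, among them TIE1 at 1649 to 2571 and MMRN1 at 1750 to 2157, while CD34, EMCN and LYVE1 stayed below 1. The sum of that list was higher at 72 h, not lower, between 5833 and 5925 CPM in DMSO and 5774 and 5948 in cisplatin at 24 h against 6362 to 6536 in DMSO and 6485 to 6642 in cisplatin at 72 h. Of 5 mesenchymal markers only VIM was above 1 CPM, at 6775 to 8454. The leukocyte list, with PTPRC at 0 and CD68 as its main gene, summed to between 322 and 379 at 24 h and between 593 and 658 at 72 h. These sums differ between the times, the 2 endothelial ones in opposite directions, and their part in those results was not tested. Fewer cells of a type and less RNA per cell cannot be told apart in such bulk libraries. The study states that its cell lines were not authenticated, and the identity of these cells was not tested here.

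The exon level was first compared between members, as exon CPM per kilobase of merged exons, in DMSO at 24 h. BCL2L1, which encodes BCL-XL, stood highest at 118 ± 0.571 (SD, n = 3). BAK1 followed at 19.1 ± 1.59, BID at 4.75 ± 0.565 and BAD at 3.33 ± 0.361. BCL2L11, BAX and BCL2 lay lowest among the detected members, at 1.78 ± 0.166, 1.58 ± 0.173 and 1.03 ± 0.143. In that order only the neighbours BCL2L11 and BAX had overlapping libraries.
The order depends on which bases were counted. Of genes with an exon entry, 96.0% have an exon that is identical in all their CCDS-tagged transcripts in GENCODE 44, against 33.1% of genes without an entry, and the length actually counted is not given in the sources used here. Per kilobase of such identical exons, BID stood at 59.5 and BAX at 30.0 in DMSO at 24 h, both above BAK1 at 19.4 and BAD at 8.15. For BAX the difference comes from 136 identical bases against 2587 merged ones. BCL2, BCL2L1 and BCL2L11 have no such exon and take no value on that scale.

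Sequence before the transcription start is shown for the 4 members whose exon counts passed the test with time in DMSO, since the comparisons below return to them. These are RefSeq windows on GRCh38.p14, the first listed for each gene, 250 bases long, written 5′ to 3′ on the gene's strand and ending just before the start. BCL2L1 and BAD rose with time in both treatments, BCL2L11 fell in both, and BCL2 fell in DMSO. The windows lie at chr20:31723964-31724213 (minus strand) for BCL2L1, chr11:64284705-64284954 (minus strand) for BAD, chr2:111120664-111120913 (plus strand) for BCL2L11 and chr18:63319770-63320019 (minus strand) for BCL2. Capitals mark matches on either strand to any of 5 motifs, namely the GC box GGGCGG, the CCAAT box CCAAT, the E-box CACGTG, the forkhead motif GTAAACA and the TATA box TATAAA.
BCL2L1: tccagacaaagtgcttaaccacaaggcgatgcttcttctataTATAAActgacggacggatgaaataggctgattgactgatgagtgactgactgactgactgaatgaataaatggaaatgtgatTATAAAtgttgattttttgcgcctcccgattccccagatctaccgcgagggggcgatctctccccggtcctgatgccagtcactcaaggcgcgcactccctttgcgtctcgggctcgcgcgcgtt
BAD: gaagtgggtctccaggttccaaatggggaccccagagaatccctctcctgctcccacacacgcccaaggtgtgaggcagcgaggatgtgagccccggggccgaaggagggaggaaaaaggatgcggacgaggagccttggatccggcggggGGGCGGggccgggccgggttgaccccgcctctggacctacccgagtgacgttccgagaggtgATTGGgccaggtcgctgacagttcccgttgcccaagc
BCL2L11: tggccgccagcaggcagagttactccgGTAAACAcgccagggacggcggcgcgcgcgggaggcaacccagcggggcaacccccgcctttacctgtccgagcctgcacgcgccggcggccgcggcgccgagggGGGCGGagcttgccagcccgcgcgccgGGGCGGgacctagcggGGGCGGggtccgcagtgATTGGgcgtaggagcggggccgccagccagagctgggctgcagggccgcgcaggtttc
BCL2: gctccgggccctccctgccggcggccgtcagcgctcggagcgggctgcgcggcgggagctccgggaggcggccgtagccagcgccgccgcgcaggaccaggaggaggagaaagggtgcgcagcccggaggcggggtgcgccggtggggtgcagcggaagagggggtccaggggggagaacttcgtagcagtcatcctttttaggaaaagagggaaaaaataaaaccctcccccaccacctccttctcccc
The BCL2L1 window held 2 TATA boxes and no other motif of the 5, a second RefSeq window of the gene held none of the 5, and 10.7% of 35116 windows of all genes held a TATA box. BAD had 1 GC box and 1 CCAAT box, motifs found in 42.6% and 32.0% of all windows. BCL2L11 had 3 GC boxes, 1 CCAAT box and 1 forkhead motif, the last present in 2.98% of all windows. BCL2 held none of the 5, in a window of 70% G and C, where the median of all windows was 58%. RefSeq windows matched 8 of the 10 members, and among the others BAX stood out by 4 E-boxes in its window, a motif in 6.34% of all windows. A match describes letters in these windows and not binding.

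**Figure D1:**
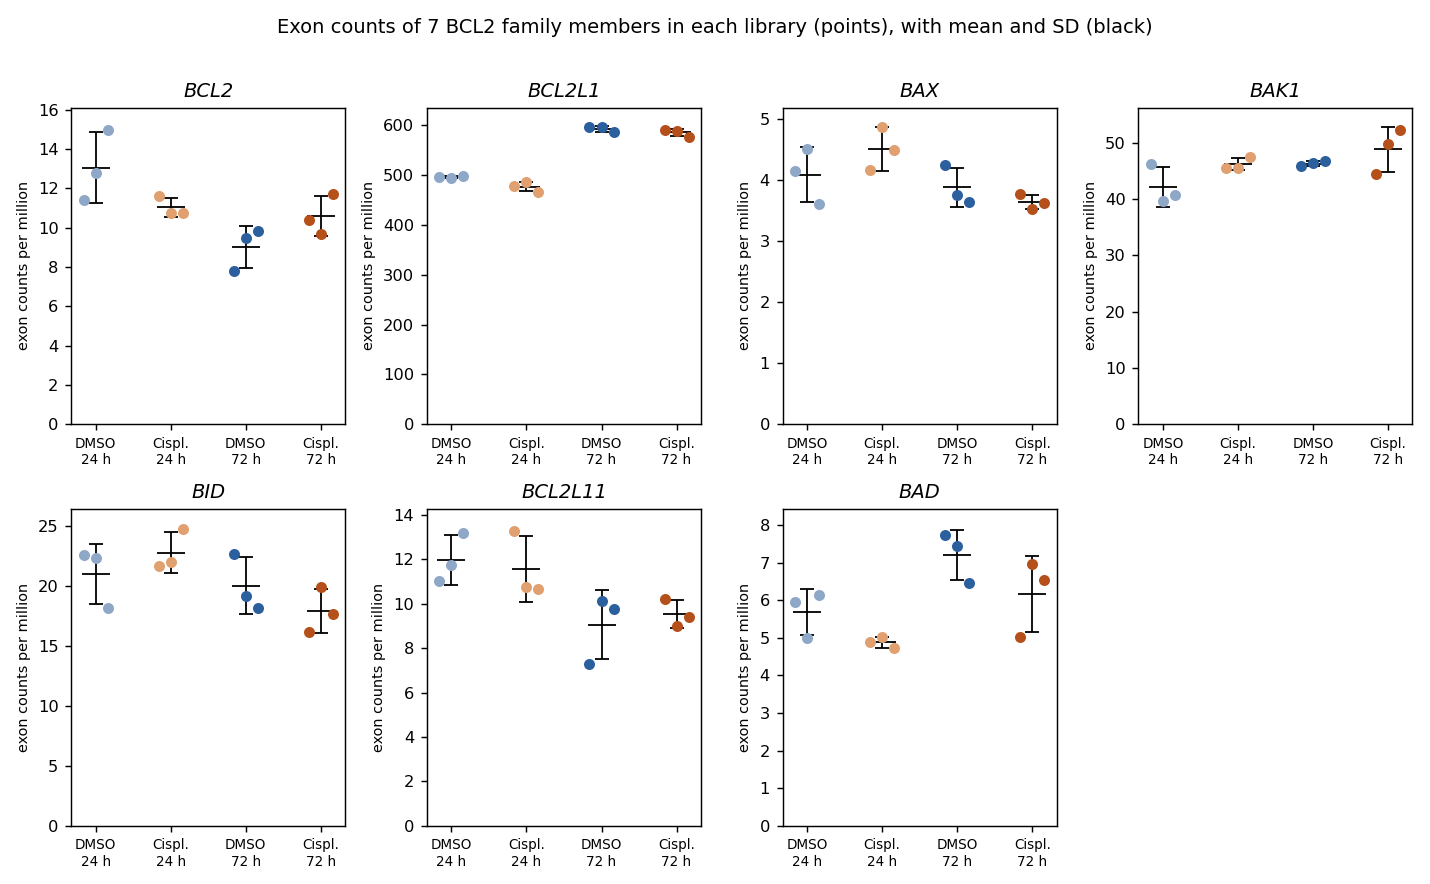
Exon CPM (vertical axes, from 0) of 7 members in each of the 12 libraries, with 1 point per library and the mean and SD of each group in black. BCL2L1 sits between 467 and 499 at 24 h and between 577 and 596 at 72 h, while the cisplatin and DMSO points of most members overlap at each time.

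BCL2, the founding survival member, lies on chromosome 18 from 63123346 to 63320128. Its exon CPM values in DMSO were 11.4, 12.8 and 15.0 at 24 h and 7.81, 9.48 and 9.80 at 72 h. Cisplatin libraries held 11.6, 10.8 and 10.7 at 24 h and 10.4, 9.70 and 11.7 at 72 h. In DMSO every 72 h library lay below every 24 h library, whereas the cisplatin libraries of the 2 times overlapped. With time in DMSO, BCL2 exon counts fell by 0.51 on the log2 scale (SE 0.12, 95% interval -0.75 to -0.27, edgeR adjusted p = 0.000471). In cisplatin the change with time was -0.07 (95% interval -0.30 to 0.17, edgeR adjusted p = 0.619).
The introns of BCL2 were also lower at 72 h, in both treatments. Intron CPM values in DMSO were 55.6, 42.3 and 60.2 at 24 h and 28.2, 22.1 and 22.7 at 72 h, with no overlap. In cisplatin they were 47.5, 46.7 and 38.0 at 24 h and 36.5, 29.5 and 33.6 at 72 h, again with no overlap. The fall in DMSO was 1.12 on the log2 scale (log2 change -1.12, SE 0.20, edgeR adjusted p = 8.3e-06). The change in cisplatin was -0.43 (SE 0.18, edgeR adjusted p = 0.0642), which passed without replicate 3 of cisplatin at 24 h (-0.51, edgeR adjusted p = 0.0474). In GENCODE 44 a long noncoding RNA overlaps BCL2 on the same strand and another on the opposite strand, and their reads may be among these counts.
Between treatments, BCL2 introns at 72 h were higher in all 3 cisplatin libraries than in all 3 DMSO libraries, by 0.45 on the log2 scale (95% interval 0.06 to 0.84), which did not pass (edgeR adjusted p = 0.704). BCL2 exons differed by 0.21 at 72 h and by -0.23 at 24 h, and neither passed. The test of the difference itself, the cisplatin effect at 72 h minus that at 24 h, gave 0.45 for exons (95% interval 0.11 to 0.78, edgeR adjusted p = 0.455) and 0.68 for introns (95% interval 0.14 to 1.22, edgeR adjusted p = 0.814). Neither passed, and of all genes tested 0% passed for exons and 0.0416% for introns. By edgeR 0 members passed it on either count type, and by DESeq2 also 0. An unadjusted edgeR p under 0.05 was reached by 1 member (BCL2) on each, beside 985 of 10444 genes for exons and 549 of 9618 for introns.

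BCL2L1, on chromosome 20 from 31664452 to 31723989, gave the most precise values of the family, with 7998 to 37752 exon counts in a library. Its exon CPM values in DMSO were 496, 494 and 499 at 24 h and 596, 596 and 586 at 72 h. In cisplatin they were 478, 486 and 467 at 24 h and 591, 589 and 577 at 72 h. Every 72 h library stood above every 24 h library in both treatments. BCL2L1 exon counts rose with time by 0.26 in DMSO (SE 0.04, 95% interval 0.17 to 0.35, edgeR adjusted p = 1.42e-05) and by 0.30 in cisplatin (SE 0.04, 95% interval 0.21 to 0.39, edgeR adjusted p = 2.08e-06).
At 24 h all 3 cisplatin libraries of BCL2L1 lay below all 3 DMSO libraries. That difference was -0.06 on the log2 scale (95% interval -0.15 to 0.03) and did not pass. At 72 h it was -0.02 (95% interval -0.11 to 0.07), with overlapping libraries. BCL2L1 introns made up 1.65% of its exon and intron counts, the lowest share of the 7 members with both. Their change with time was 0.04 in DMSO and 0.26 in cisplatin (edgeR adjusted p = 0.0869 for the latter), and in cisplatin every 72 h library stood above every 24 h library.

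MCL1, a short-lived survival member on chromosome 1 from 150560895 to 150579738, could be read only through its introns. Intron CPM values were 68.3, 86.6 and 85.0 in DMSO and 97.8, 73.1 and 76.1 in cisplatin at 24 h. At 72 h they were 92.8, 82.2 and 77.9 in DMSO and 63.5, 70.2 and 70.4 in cisplatin. The 3 cisplatin libraries at 72 h lay below all DMSO libraries of that time and below all cisplatin libraries at 24 h. The difference from DMSO at 72 h was -0.30 on the log2 scale (95% interval -0.59 to -0.02), which did not pass over all genes (edgeR adjusted p = 0.728). With time, MCL1 introns had a log2 change of -0.27 in cisplatin (edgeR adjusted p = 0.142) and of 0.07 in DMSO (edgeR adjusted p = 0.745), and neither passed. In GENCODE 44 the MCL1 gene overlaps 5 other genes, among them ADAMTSL4, a coding gene on the opposite strand, and the strand setting of the counting is not given in the sources used here.

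**Figure D2:**
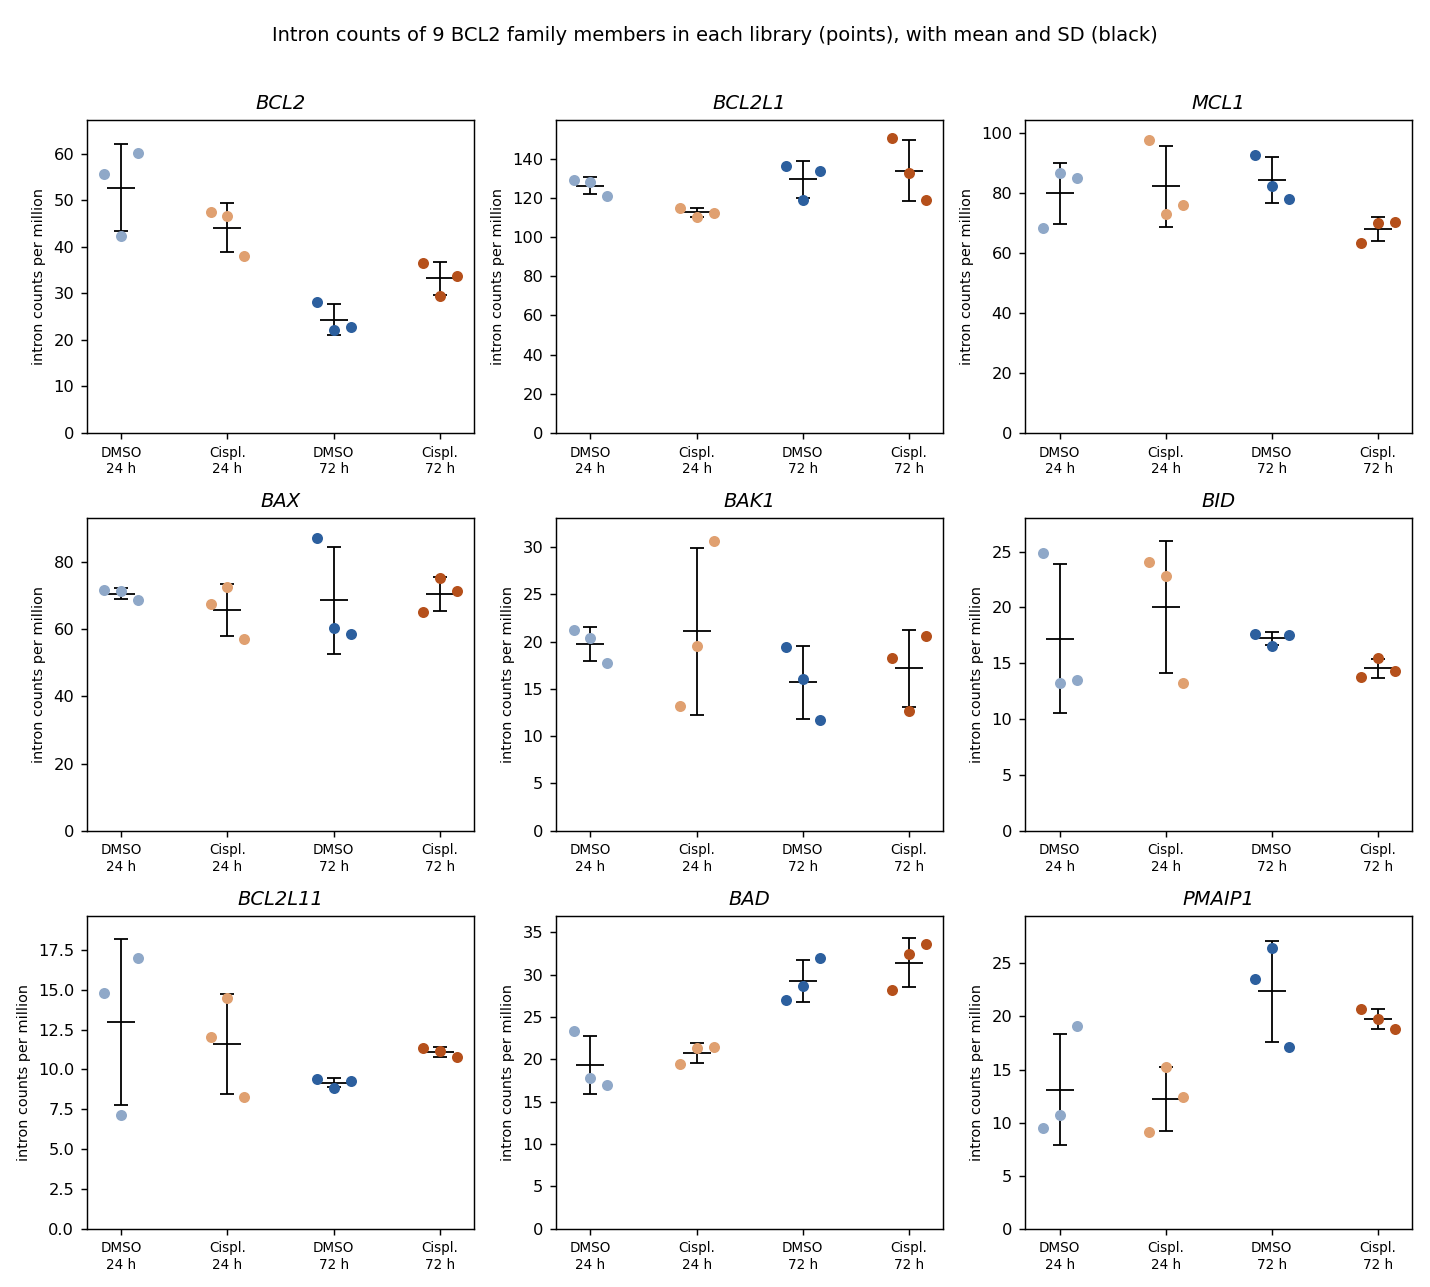
Intron CPM (vertical axes, from 0) of 9 members in each of the 12 libraries, with 1 point per library and the mean and SD of each group in black. BCL2 is lower and BAD higher in each 72 h group than in its 24 h group, and MCL1 at 72 h lies lower in the 3 cisplatin libraries than in the 3 DMSO libraries.

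No comparison of exon or intron counts of the effectors BAK1 and BAX passed in edgeR with all libraries kept. BAK1, on chromosome 6 from 33572547 to 33580293, had exon CPM values of 46.2, 39.6 and 40.7 in DMSO and 45.5, 45.6 and 47.4 in cisplatin at 24 h. At 72 h they were 45.8, 46.3 and 46.8 in DMSO and 44.4, 49.8 and 52.3 in cisplatin. All groups overlapped in pairs, and no comparison of BAK1 passed, with log2 changes between 0.07 and 0.13 in the 4 comparisons. The change with time in DMSO was 0.13 (95% interval -0.01 to 0.28, edgeR adjusted p = 0.103) and passed only without replicate 1 of DMSO at 24 h (0.21, edgeR adjusted p = 0.0202). The processed pseudogenes BAK1P1 and BAK1P2 are near copies by name, so that reads could be split between them and BAK1.
BAX, on chromosome 19 from 48954815 to 48961798, had only 67 to 226 exon counts in a library. Its exon CPM values were 4.14, 4.50 and 3.61 in DMSO and 4.15, 4.87 and 4.49 in cisplatin at 24 h. At 72 h they were 4.24, 3.75 and 3.63 in DMSO and 3.77, 3.52 and 3.62 in cisplatin. The cisplatin libraries at 72 h all lay below those at 24 h, a change of -0.32 on the log2 scale (95% interval -0.62 to -0.02, edgeR adjusted p = 0.0601). That change passed only without replicate 1 of cisplatin at 24 h (-0.38, edgeR adjusted p = 0.049). BAX differed between cisplatin and DMSO by 0.14 at 24 h (95% interval -0.18 to 0.45) and by -0.09 at 72 h (95% interval -0.38 to 0.21), and neither passed.
Introns supplied 55.8% of the exon and intron counts of BAX, against 1.65% to 24.1% in the other 6 members tested on both. Such a share depends on which exon bases were counted, which is not given in the sources used here. BAX has 136 identical exon bases against 2587 merged ones, and the part of this in its share was not tested. BAX introns showed no change past the test, with log2 changes between -0.09 and 0.08 in the 4 comparisons. BAK1 introns had a log2 change of -0.38 with time in DMSO and of -0.28 in cisplatin, on 23 to 61 counts a library, and neither passed.

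Among the BH3-only members, BID links death receptors to mitochondria after cleavage by caspase 8. It lies on chromosome 22 from 17734138 to 17774770. Exon CPM values of BID in cisplatin were 21.6, 21.9 and 24.7 at 24 h and 16.2, 19.9 and 17.6 at 72 h, with every later library lower. In DMSO they were 22.5, 22.3 and 18.1 at 24 h and 22.7, 19.1 and 18.2 at 72 h, with overlap. BID exon counts fell with time in cisplatin by 0.34 on the log2 scale (SE 0.10, 95% interval -0.55 to -0.13, edgeR adjusted p = 0.00567). In DMSO the change was -0.08 (95% interval -0.30 to 0.13, edgeR adjusted p = 0.49). The difference between these changes was -0.25 (95% interval -0.55 to 0.04) and did not pass (edgeR adjusted p = 0.581), so that a fall particular to cisplatin was not shown. BID introns, on 16 to 72 counts a library, had a log2 change of -0.50 with time in cisplatin, which did not pass (edgeR adjusted p = 0.149).

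BCL2L11, which encodes BIM and lies on chromosome 2 from 111119378 to 111168444, can bind all survival proteins of the family. Its exon CPM values in DMSO were 11.01, 11.7 and 13.2 at 24 h and 7.29, 10.1 and 9.76 at 72 h. In cisplatin they were 13.3, 10.8 and 10.7 at 24 h and 10.2, 8.998 and 9.39 at 72 h. The 2 times did not overlap in either treatment. BCL2L11 exon counts fell by 0.39 on the log2 scale in DMSO (SE 0.12, 95% interval -0.64 to -0.13, edgeR adjusted p = 0.00827) and by 0.28 in cisplatin (SE 0.12, 95% interval -0.53 to -0.03, edgeR adjusted p = 0.0463).
The fall of BCL2L11 in DMSO did not pass without replicate 1 of DMSO at 72 h (-0.27, edgeR adjusted p = 0.0673). The fall in cisplatin did not pass without replicate 1 of cisplatin at 24 h (-0.17, edgeR adjusted p = 0.267), without replicate 2 of cisplatin at 72 h (-0.23, edgeR adjusted p = 0.148) or without replicate 3 of cisplatin at 72 h (-0.27, edgeR adjusted p = 0.0931). BCL2L11 introns gave 10 to 52 counts a library, too few for a narrow interval, as with their change in DMSO of -0.47 (95% interval -1.16 to 0.22). Cisplatin against DMSO gave -0.04 at 24 h and 0.07 at 72 h for BCL2L11 exons, and neither passed.

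BAD, a BH3-only protein that growth factor signalling keeps inactive by phosphorylation, lies on chromosome 11 from 64269830 to 64284704. Exon CPM values of BAD in DMSO were 5.95, 4.99 and 6.14 at 24 h and 7.73, 7.43 and 6.46 at 72 h. In cisplatin they were 4.90, 5.01 and 4.73 at 24 h and 5.02, 6.96 and 6.54 at 72 h. The later libraries were all higher in both treatments, although the lowest cisplatin library at 72 h stood just above the highest at 24 h. BAD exon counts rose with time by 0.34 in DMSO (SE 0.14, 95% interval 0.05 to 0.63, edgeR adjusted p = 0.0392) and by 0.33 in cisplatin (SE 0.14, 95% interval 0.04 to 0.63, edgeR adjusted p = 0.0434).
Intron CPM values of BAD moved the same way, from 23.3, 17.8 and 17.005 to 27.0, 28.7 and 31.9 in DMSO and from 19.5, 21.4 and 21.5 to 28.1, 32.5 and 33.6 in cisplatin. The rise of BAD introns was 0.59 in DMSO (SE 0.23, edgeR adjusted p = 0.0398) and 0.59 in cisplatin (SE 0.22, edgeR adjusted p = 0.0302), with no overlap between times.
These calls on BAD rest on few counts (81 to 446 exon and 24 to 151 intron counts a library) and depend on the setting. With all libraries kept, the exon call in cisplatin was lost by DESeq2 (adjusted p = 0.0565) and with a minimum of 1 count in 1 library (edgeR adjusted p = 0.05003). The intron call in DMSO was lost by DESeq2 (adjusted p = 0.0512) and, in edgeR, in a fit to the 6 libraries compared, with that lower minimum and with the TMM sizes of exon counts (edgeR adjusted p = 0.0519, 0.0629 and 0.0806). The intron call in cisplatin was lost with the TMM sizes of exon counts (edgeR adjusted p = 0.0704). The exon rise in DMSO did not pass without DMSO replicate 2 at 24 h, replicate 1 at 72 h or replicate 2 at 72 h (0.25, 0.29 and 0.31, edgeR adjusted p = 0.188, 0.122 and 0.0942). In cisplatin it passed only without replicate 1 at 72 h, and without replicates 1, 2 or 3 at 24 h or 2 or 3 at 72 h the changes were 0.33, 0.36, 0.31, 0.22 and 0.30 (edgeR adjusted p = 0.0833, 0.0733, 0.0966, 0.231 and 0.108).
For BAD introns in DMSO the call was lost without replicates 2 or 3 at 24 h or at 72 h (0.53, 0.52, 0.61 and 0.51, edgeR adjusted p = 0.126, 0.118, 0.0643 and 0.147). In cisplatin it was lost without replicates 1, 2 or 3 at 24 h or 2 or 3 at 72 h (0.55, 0.62, 0.61, 0.56 and 0.55, edgeR adjusted p = 0.0854, 0.0659, 0.0502, 0.0911 and 0.0792). BAD overlaps GPR137 on the opposite strand, and without the strand setting of the counting it is not known whether these counts separate the 2 genes. Cisplatin against DMSO gave -0.21 for BAD exons at both times (95% intervals -0.52 to 0.10 at 24 h and -0.49 to 0.06 at 72 h), and neither passed.

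PMAIP1, which encodes NOXA, a BH3-only protein that binds MCL1, lies on chromosome 18 from 59899996 to 59904305. Its introns gave 15 to 92 counts a library. Intron CPM values were 9.53, 10.7 and 19.1 in DMSO and 9.15, 15.2 and 12.4 in cisplatin at 24 h. At 72 h they were 23.5, 26.5 and 17.2 in DMSO and 20.7, 19.8 and 18.8 in cisplatin. In cisplatin the 2 times did not overlap, while in DMSO the highest 24 h library stood above the lowest 72 h library.
PMAIP1 introns rose with time in DMSO by 0.79 (SE 0.29, 95% interval 0.20 to 1.37, edgeR adjusted p = 0.0305). That call was lost without DMSO replicates 1 or 2 at 24 h or replicates 1 or 2 at 72 h (0.60, 0.66, 0.74 and 0.64, edgeR adjusted p = 0.159, 0.126, 0.0729 and 0.134). With all libraries kept, it was lost with the TMM sizes of exon counts (0.71, edgeR adjusted p = 0.0608). The change in cisplatin was 0.66 (SE 0.28, edgeR adjusted p = 0.0636) and passed without replicate 2 of cisplatin at 24 h (0.90, edgeR adjusted p = 0.043). Between cisplatin and DMSO the difference was -0.02 at 24 h (95% interval -0.66 to 0.61) and -0.15 at 72 h (95% interval -0.66 to 0.36), and neither passed.

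**Figure D3:**
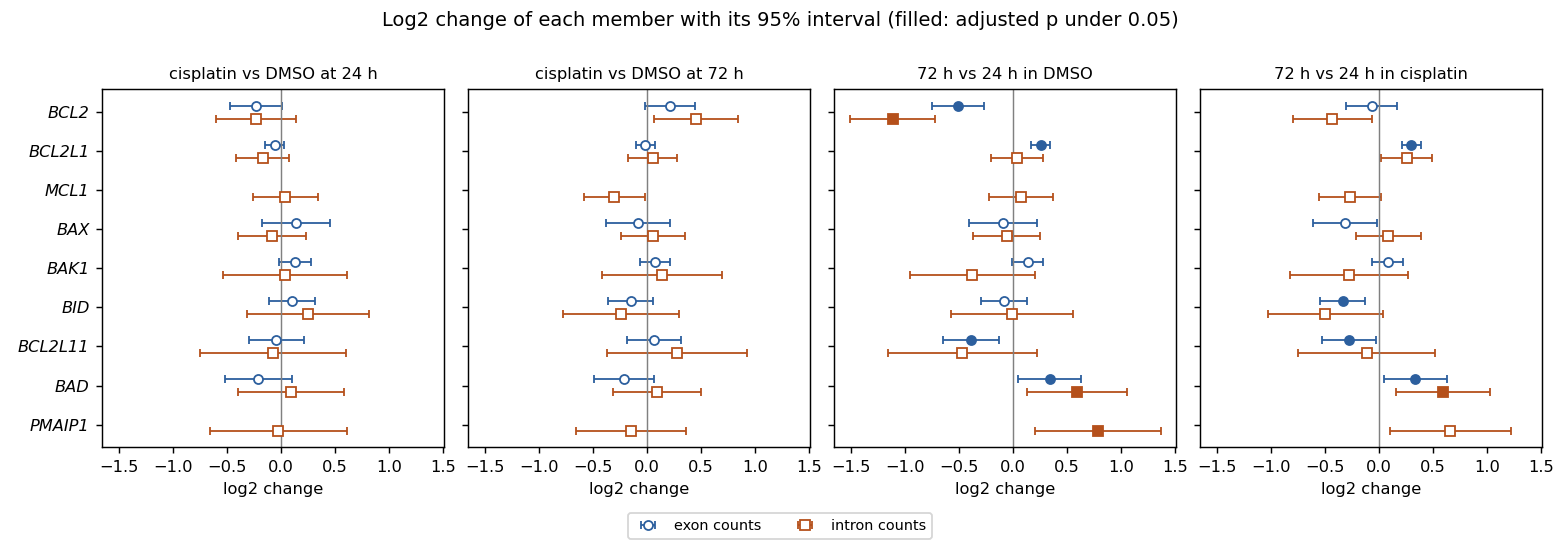
Log2 change (horizontal axis) of exon counts (circles) and intron counts (squares) of 9 members in the 4 comparisons, with 95% intervals and filled symbols where the adjusted p is under 0.05. No symbol is filled for cisplatin against DMSO, and BCL2 introns in DMSO, at -1.12, lie farthest from 0.

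Counted over the family, cisplatin against DMSO called 0 of 7 members for exons at 24 h and 0 at 72 h by edgeR, where 0% and 0.0287% of the 10444 genes tested were called. An unadjusted p under 0.05 was reached by 0 members at either time, beside 260 and 1311 of the 10444 genes, and DESeq2 also called 0 members. For introns edgeR called 0 of 9 members at 24 h and 0 at 72 h, where 0.0208% and 0.0416% of 9618 genes were called. Unadjusted, 0 members at 24 h and 2 at 72 h (BCL2 and MCL1) had p under 0.05, beside 481 and 621 of the 9618 genes. DESeq2 called 0 members at either time. The median log2 difference of the 7 members in exons was -0.04 at 24 h and -0.02 at 72 h.
Time gave calls in both treatments. In DMSO 2 members rose in exon counts (BCL2L1 and BAD), as did 32.6% of all genes tested, and 2 fell (BCL2 and BCL2L11), as did 32.5% of all genes. In cisplatin 2 rose (BCL2L1 and BAD) beside 32% of all genes, and 2 fell (BID and BCL2L11) beside 31.5%. In all, 4 of 7 members changed in each treatment against 65.1% of all genes in DMSO and 63.5% in cisplatin. Leaving out 1 library gave 2 to 5 members in DMSO, beside 6373 to 6602 genes, and 2 to 4 in cisplatin, beside 6104 to 6377. For introns in DMSO 2 of 9 members rose (BAD and PMAIP1) beside 17.2% of all genes and 1 fell (BCL2) beside 16.2%. In cisplatin 1 rose (BAD) beside 16.4% and 0 fell beside 15.4%. DESeq2 called 2 members for introns in DMSO and 1 in cisplatin, where edgeR called 33.4% and 31.8% of all genes in either direction. The largest exon change of a member with time, -0.51, lay within the range of all genes in DMSO, whose 5th and 95th percentiles were -0.82 and 1.13.

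**Figure D4:**
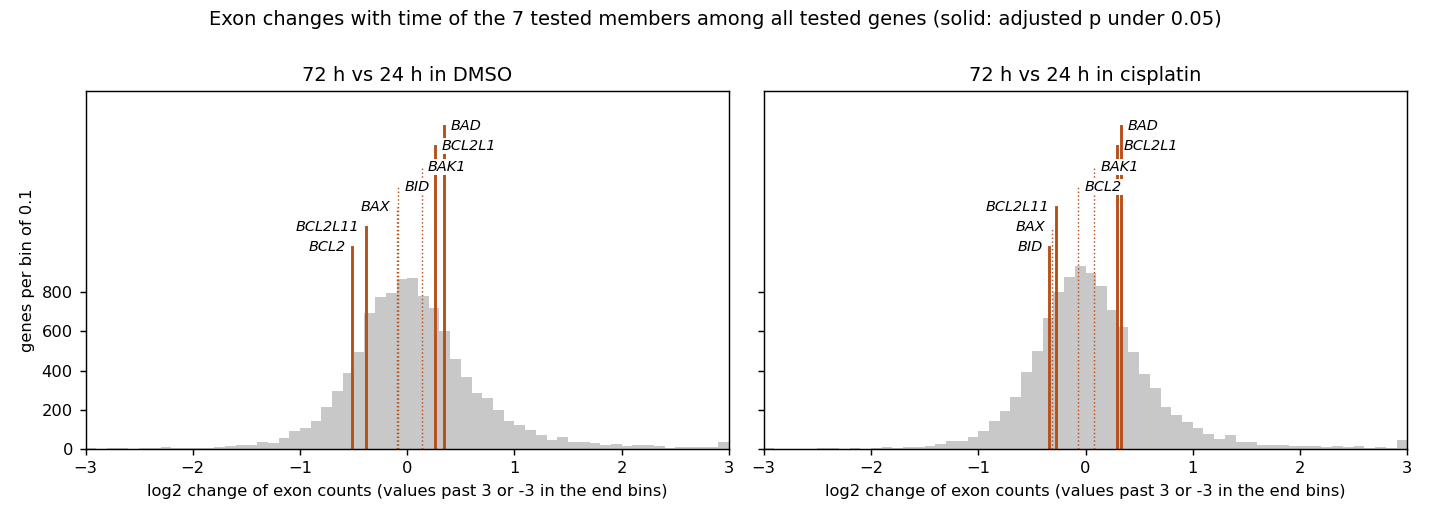
Number of genes (vertical axis) by log2 change of exon counts from 24 to 72 h (horizontal axis, bins of 0.1) in DMSO and in cisplatin, with a line at each of the 7 tested members, solid where the adjusted p is under 0.05. The heights of the lines only separate the names, and every member lies between -0.51 and 0.34.

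The ratio of exon to intron counts, which the study used as a measure of splicing, was tested within libraries for 7 members. By edgeR 0 members passed in each of the 4 comparisons, where 0% and 0.0213% of 9393 genes passed for cisplatin at 24 and 72 h and 11.5% and 12% for time in DMSO and in cisplatin. Unadjusted p under 0.05 was found for 0 members in cisplatin against DMSO at either time, beside 595 and 586 of the 9393 genes. With time it was found for 3 members in DMSO (BCL2, BCL2L1 and BAK1) and 0 in cisplatin, beside 2367 and 2554 genes. DESeq2 called 0 members in all 4 comparisons. The ratio of BCL2 had a log2 change of 0.67 with time in DMSO (95% interval 0.19 to 1.15, edgeR adjusted p = 0.0612). It passed without DMSO replicate 2 at 24 h (0.85, edgeR adjusted p = 0.0298) or DMSO replicate 1 at 72 h (0.86, edgeR adjusted p = 0.0348).
Logistic regression, the study's own model, which leaves out the spread between libraries, called more. It called 0 members for cisplatin at 24 h and 0 at 72 h, where it called 11.5% and 11.4% of all genes. At an unadjusted p under 0.05 there were 0 and 3 members, beside 2392 of 9678 genes at 24 h and 2509 of 10011 at 72 h. With time it called BCL2, BCL2L1 and BAK1 in DMSO beside 33.7% of all genes, and BCL2 and BAK1 in cisplatin beside 40.6%, all with a higher exon share at 72 h. The call on BAK1 in DMSO was lost without DMSO replicate 3 at 72 h (0.38). In cisplatin the call on BAK1 was lost without cisplatin replicates 2 or 3 at 24 h or 2 at 72 h (0.42, 0.29 and 0.19), and that on BCL2 without cisplatin replicate 2 at 24 h (0.33). Leaving out 1 library also gave calls, on BAX (-0.41, without cisplatin replicate 1 at 72 h) and BID (0.53, without cisplatin replicate 3 at 24 h) with time in cisplatin, and on BAD (-0.54, without DMSO replicate 3 at 72 h) and BCL2 (-0.51, without DMSO replicate 1 at 72 h) between treatments at 72 h. With a variance estimated from the libraries (quasi-binomial), 0 members passed in any comparison. In the edgeR fit, the 7 ratios at 72 h differed between cisplatin and DMSO by a median of -0.24 on the log2 scale, where the median of all genes was -0.08, and at 24 h both medians were -0.09.

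Other genes of the pathway gave 0 calls between cisplatin and DMSO at either time by edgeR, in 4 lists of genes tested for exon counts. With a minimum of 1 count in 1 library, 1 gene of the list of regulators passed at 72 h. With time, the counts below stand beside 65.1% of all genes called in DMSO and 63.5% in cisplatin, in either direction. Of 12 further BCL2 family genes 5 were tested, and 2 rose with time in each treatment. These were BCL2L2, which encodes the survival protein BCL-W (0.26 in DMSO and 0.29 in cisplatin), and BNIP3L, a mitophagy receptor (0.42 and 0.49). Downstream of the family, 15 of 17 genes were tested, of which 3 rose and 7 fell in DMSO and 2 rose and 8 fell in cisplatin, with median log2 changes of -0.26 and -0.42 where the median of all genes was 0.01 and 0.02. CYCS, which encodes cytochrome c, fell by 0.94 on the log2 scale in DMSO and by 1.16 in cisplatin. APAF1, the core of the apoptosome, fell by 0.87 and by 0.60. BIRC3, an inhibitor of apoptosis protein, rose by 0.96 and by 1.11, the largest rise of this list.
In the death receptor pathway upstream of BID, 8 of 10 genes were tested, with 2 that rose and 2 that fell in DMSO and 2 and 3 in cisplatin. TNFRSF10B, a TRAIL receptor, rose by 0.40 and 0.59, and CFLAR, an inhibitor of caspase 8, fell by 0.28 and by 0.68. Among 12 regulators of the members 10 were tested, with 2 that rose and 5 that fell in DMSO and 2 and 3 in cisplatin. E2F1, a cell cycle transcription factor, fell by 1.33 and by 1.14, and HUWE1, a ubiquitin ligase of MCL1, fell by 0.66 and by 0.46. FOXO3, a forkhead factor known to activate BCL2L11, rose by 0.36 and 0.47.

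The genes whose exon levels followed each changed member most closely over the 12 libraries were taken by Pearson's r of log2 CPM, among 10444 genes. Since the 12 libraries share 2 times, any genes that change with time correlate. BCL2L1 was followed by PHYKPL at r = 0.991. BCL2 was followed by FOXN2 (0.936) and ATP1B1 (0.932), BCL2L11 by PGM3 (0.957) and ADAM22 (0.952), BID by UBAC1 and OAZ1 (both 0.932), and BAD by APOM (0.915) and TSTD3 (0.909). Among the members themselves, BCL2 and BCL2L11 were the pair most alike (r = 0.846), BAX and BID followed (0.785), and BCL2L1 and BCL2L11 ran most opposite (-0.734).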

How the data were processed

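Poly(A) RNA of the 12 libraries had been sequenced as paired reads. The authors trimmed the reads (Trim Galore 0.6.0), aligned them to GRCh38 with HISAT2 2.1.0 and, with HTSeq and Ensembl release 98, deposited raw exon and intron counts per gene. The libraries were made with a directional kit, but whether counting used strand is not given in the sources used here. Counts were tested with edgeR 4.0.16 (R 4.3.3), quasi-likelihood, TMM scaling, default low-count filter, 1 coefficient per group, and Benjamini-Hochberg adjustment over all genes tested at 0.05. The exon to intron ratio was tested in the same way on both count types of genes with at least 10 counts in 3 libraries, and by logistic regression, as in the study, on genes with at least 1 count of each type in all libraries compared. DESeq2 1.42.0, other scalings and filters, the replicate number as a block and leaving out each library were alternatives. The intron test of the difference between times and the lengths of identical exons were chosen after seeing the data. The members and lists were chosen with earlier results of these data known. All members are named. From each list, at most the 4 genes with the largest change per comparison among those that passed are named, and for likeness the 2 genes with the highest correlation. Some genes under these rules, and 1 list, are not reported here. The statistics were tested on simulated data with known changes in cisplatin at 72 h. At 2-fold, edgeR recovered 190 of 199 changed genes for exons, 155 of 198 for introns and 159 of 200 for the ratio. At 1.5-fold it recovered 171 of 200, 81 of 198 and 35 of 200. Logistic regression at 1.5-fold recovered 155 of 200 and also called 1483 of 8954 unchanged genes. Intervals are at 95%, and reads carry no molecular identifiers.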

Additional observations from a re-analysis of the deposited data

How the results depend on the processing

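Between cisplatin and DMSO no member passed in any alternative for exon or intron counts. With a minimum of 1 count in 1 library, exon calls over all genes were 7 at 24 h, 154 at 72 h and 20 for the difference between times, intron calls 5, 19 and 11, and ratio calls 2 at 24 h and 13 at 72 h. DESeq2 called 79 genes for exons at 72 h, 0 and 2 for introns at 24 and 72 h, and 745 for the ratio with time in cisplatin. A fit to the 6 libraries compared called 26 genes for introns at 72 h. With the TMM sizes of exon counts, introns gave 0 genes at 24 h, 0 for the difference between times and 1 member with time in DMSO (BCL2), and BCL2 introns in cisplatin then passed (-0.51), while the intron calls on BAD in DMSO and in cisplatin (0.52 in each, edgeR adjusted p = 0.0806 and 0.0704) and on PMAIP1 in DMSO (0.71, edgeR adjusted p = 0.0608) were lost. In the main fit, with the TMM sizes of intron counts, 33.4% of all genes passed for introns with time in DMSO. With quasi-binomial variance, logistic regression called 0 members in every comparison, 0 genes at 24 h and 0 at 72 h, and with time 64 genes (DMSO) and 97 (cisplatin). The cause of these differences was not tested.

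With the replicate number as a block, 2 members passed for exons with time in cisplatin, where 63.5% of all genes passed without the block. BAD in DMSO (edgeR adjusted p = 0.0507), BAD in cisplatin (edgeR adjusted p = 0.0563) and BCL2L11 in cisplatin (edgeR adjusted p = 0.0591) did not pass with it. The block gave 0 genes for introns at 24 h and 0 for their difference between times. Same-numbered libraries deviated together by r of -0.11 to 0.10 for exons and -0.05 to 0.08 for introns, and the numbers are not taken to pair them. All 3 libraries correlated best with their own number in exons with time in cisplatin and in introns for cisplatin at 72 h.

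Signs that turned belonged to values that did not pass. With exon TMM sizes the intron change at 24 h was 0.0019 for BAX, 0.064 for PMAIP1 and 0.0095 for BCL2L11, and -0.035 for BCL2L1 with time in DMSO. The block gave 0.037 for BID introns with time in DMSO. For BAD introns the difference between times was -0.0044 by DESeq2, -0.0046 with its size factors and -0.0066 with exon TMM sizes.

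Leaving out 1 library gave 2 to 5 members for exons with time in DMSO and 2 to 4 in cisplatin, 1 to 2 for introns in DMSO and 0 to 1 in cisplatin, and 0 to 1 for the ratio in DMSO. By logistic regression it gave 0 to 1 members at 72 h, 2 to 3 in DMSO and 0 to 3 in cisplatin. Over all genes it gave 0 to 1 exon calls at 24 h, 0 to 72 at 72 h (72 without DMSO replicate 3 at 72 h) and 0 to 1 for the difference between times. Intron calls were 0 to 2, 3 to 9 and 0 to 7, ratio calls 1 to 4 at 72 h, 699 to 879 in DMSO and 638 to 1123 in cisplatin, and logistic calls 245 to 1555 at 24 h and 729 to 1138 at 72 h. With time, exon calls over all genes were 6373 to 6602 in DMSO and 6104 to 6377 in cisplatin. Intron calls with time were 2732 to 2859 and 2442 to 2704, and logistic calls 2822 to 3049 and 2965 to 3890, in the same order.

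Signs turned in exon counts for cisplatin against DMSO of BCL2L11 (-0.15 to 0.025 at 24 h and -0.059 to 0.14 at 72 h) and for the difference between times of BCL2L11 (-0.015 to 0.22), BAD (-0.12 to 0.12) and BAK1 (-0.13 to 0.0050). In introns at 24 h they turned for BAK1 (-0.25 to 0.27), PMAIP1 (-0.27 to 0.31), MCL1 (-0.10 to 0.14) and BCL2L11 (-0.39 to 0.14), and at 72 h for BAK1 (-0.072 to 0.34), BAX (-0.056 to 0.25) and BCL2L1 (-0.039 to 0.12). With time in DMSO they turned for BID (-0.19 to 0.37), BAX (-0.25 to 0.054) and MCL1 (-0.034 to 0.14), with time in cisplatin for BAK1 (-0.51 to 0.0061) and BCL2L11 (-0.27 to 0.10), and for the intron difference between times of BAD (-0.16 to 0.083), BAK1 (-0.14 to 0.38) and PMAIP1 (-0.46 to 0.12). The calls on BCL2 and BCL2L1 exons, BCL2 introns in DMSO and BID exons in cisplatin passed without any 1 library. Depth limits the introns of BAK1, BID, BCL2L11 and PMAIP1 most, at under 100 counts a library.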
